A study of Mus musculus with 12 samples.

Results

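Matrix metalloproteinases (MMPs) and the tissue inhibitors of metalloproteinases (TIMPs) were followed through 9 genes, Mmp8, Mmp9, Mmp12, Mmp13, Mmp14, Mmp19, Timp1, Timp2 and Timp3, out of 56941 genes in the count tables and out of 27 mouse Mmp and Timp genes looked up there. The 9 were chosen by name, with their levels and their differences between the groups in these same libraries already known, so the number of them called in a comparison is a description and is not evidence about the family. MMPs are zinc-dependent proteases that cut collagens, elastin and other proteins of the extracellular matrix, and most are made as inactive precursors that need to be cleaved. TIMPs bind the active site of the mature enzymes and block it. Macrophages are a known source of several MMPs during tissue repair, and IL-4-activated (M2) macrophages are the state linked to remodelling.

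The libraries came from macrophages grown from bone marrow monocytes of C57BL/6J mice, either WT or with a deletion of miR-210 (miR-210 KO). M0 cells had been differentiated for 7 days in medium with L929-conditioned medium as the source of M-CSF, and M2 cells then received 20 ng/mL IL-4 for 72 h, during which the M0 cells stayed in culture without IL-4. Each of the 4 groups (WT M0, KO M0, WT M2, KO M2) had 3 libraries of ribosomal RNA-depleted total RNA. The deletion came from crossing floxed miR-210 mice with Gata-1 Cre mice, and both genotypes were bred from heterozygotes. Cells were bulk cultures, so fewer cells of a type and less RNA per cell cannot be told apart. The labels do not say whether the 3 libraries of a group came from separate animals, so p-values measure only the spread between these libraries, and each group carries a batch name of its own in the labels, which means that an effect of batch cannot be told apart from that of the group.

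Library totals lay between 7930525 and 10167695 counts. Mir210 had 1, 3 and 5 counts in WT M0, 1, 2 and 1 in WT M2, and 0 in each of the 6 KO libraries. The 10 macrophage markers together held between 10000 and 14000 CPM (counts per 1000000 counts of a library, TMM-scaled over the 12 libraries) in every library. Fibroblast markers summed to at most 2.58 CPM and lymphocyte markers to at most 0.247 CPM. Neutrophil and granule markers summed to at most 6.41 CPM, and the defining neutrophil gene Ly6g was at 0 in all libraries. Some M0 libraries stood apart from the others of their group. In KO M0 library 3 the immediate-early gene Fos was at 908 CPM, against 79.3 to 165 CPM in the other 11 libraries, and WT M0 library 2 differed from WT M0 libraries 1 and 3 by more (chi-square per gene 7.71 and 5.67) than those differed from each other (2.69). The KO M0 libraries differed from one another by 6.07 (1 and 3) to 8.96 (1 and 2), with 7.67 between 2 and 3, so KO M0 library 2 was the farthest by this measure. Results whose call changed without one of these 3 libraries are given with and without it, and 6 or 7 members in WT and 8 in KO were called with IL-4 whichever library was left out.

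The sequence absent from the KO cells is the mature miR-210-3p, shown because the bases in capitals (bases 2 to 8, the seed) set which 3′ UTR sites it can pair with. It lies on the minus strand of chromosome 7 from 141221407 to 141221428 in GRCm38.p6 (RefSeq).
mmu-miR-210-3p: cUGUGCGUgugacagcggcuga
The matching 7-base site, ACGCACA, was found in 0 of the 9 members' annotated 3′ UTRs, against 3.48% of the 3′ UTRs of 20845 genes. The shorter 6-base site, CGCACA, was also found in 0 of the 9, against 9.26% of all 3′ UTRs. This says only that these letters are not in the canonical 3′ UTRs of GENCODE on GRCm39.

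The promoters of the members were searched for 9 motifs in 300 bases around the start of the Ensembl canonical transcript (250 before it), on both strands, together with 21770 promoters of protein-coding genes. The motif of AP-1 (TGANTCA), the factor formed by Fos and Jun proteins, was found in 4 of the 9 members, Mmp9, Mmp12, Mmp13 and Mmp19, against 7.14% of all promoters. The last 100 bases before the start of these 4 are shown, with the motif in capitals, because the same 4 are the MMP members that were called higher with IL-4 in both genotypes. All are on the plus strand of GRCm39, at chr2:164790039-164790138, chr9:7347274-7347373, chr9:7272414-7272513 and chr10:128626673-128626772, in the order below.
Mmp9: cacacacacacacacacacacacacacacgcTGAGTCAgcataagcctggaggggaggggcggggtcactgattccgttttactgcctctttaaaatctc
Mmp12: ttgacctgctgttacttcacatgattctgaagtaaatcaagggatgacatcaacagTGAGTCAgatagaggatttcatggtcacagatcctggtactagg
Mmp13: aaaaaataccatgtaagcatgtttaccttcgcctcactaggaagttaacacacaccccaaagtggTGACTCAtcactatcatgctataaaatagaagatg
Mmp19: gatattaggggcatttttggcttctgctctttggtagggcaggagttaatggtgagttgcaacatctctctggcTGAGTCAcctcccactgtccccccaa
The motif began 69, 44, 35 and 26 bases before that start in Mmp9, Mmp12, Mmp13 and Mmp19, respectively, and Mmp8, Mmp14 and the 3 Timp genes had no match in this window. Of the members without a match, Timp1 and Timp2 were also called higher with IL-4 in both genotypes. In Mmp9 and Mmp12 other annotated transcripts begin further upstream, so these stretches lie inside the spans of the genes given below with their values. The motif of STAT6, the factor that IL-4 activates (TTCNNNNGAA), and its variant with a shorter spacer (TTCNNNGAA) were in 0 of the 9, against 6.81% and 8.81% of all promoters. The NF-kB motif (GGGANNNNCC) was in 0 of the 9, against 21.7%. The letters of a TATA box (TATAAA) were in Mmp8, Mmp12, Mmp13 and Mmp19 (13.2% of all promoters), before the start on the gene's own strand in Mmp13 alone, since they lay after the start in Mmp12 and Mmp19 and on the opposite strand in Mmp8. There was a PU.1 motif (GAGGAAGT) in Mmp8 (3.07%), a GC box (GGGCGG) in Mmp9 and Timp3 (42.5%), a C/EBP motif (TTGCNNAA) in Mmp8 and Mmp9 (10.7%) and the core of the hypoxia response element (ACGTG) in Timp1 (20.7%). These matches are a description of the letters, not of binding, and the 9 motifs were searched with the IL-4 values in view.

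IL-4 was followed by higher levels of most members in both genotypes. A gene is said to be called where edgeR's quasi-likelihood test gave it an adjusted p below 0.05 (Benjamini-Hochberg, over all genes tested) together with a change of more than 1.2-fold in either direction. In WT, 6 of the 9 members were called higher in M2 than in M0 (22.1% of all 14266 genes tested were) and 0 lower (20.9%). In miR-210 KO, 6 were called higher (17.4% of 14331 genes) and 2 lower (16.4%). The 6 in each genotype include Timp1, which passed the filter on low counts only through the M2 libraries, where it was higher. The comparisons in WT and KO share no library, but each shares its M0 libraries with the comparison of genotypes in M0 and its M2 libraries with that in M2. Some groups are said below not to overlap, or to lie with every library above or below another group. The share of all genes that do the same was not counted. Such statements describe the libraries and are not evidence of a difference.

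**Figure D1:**
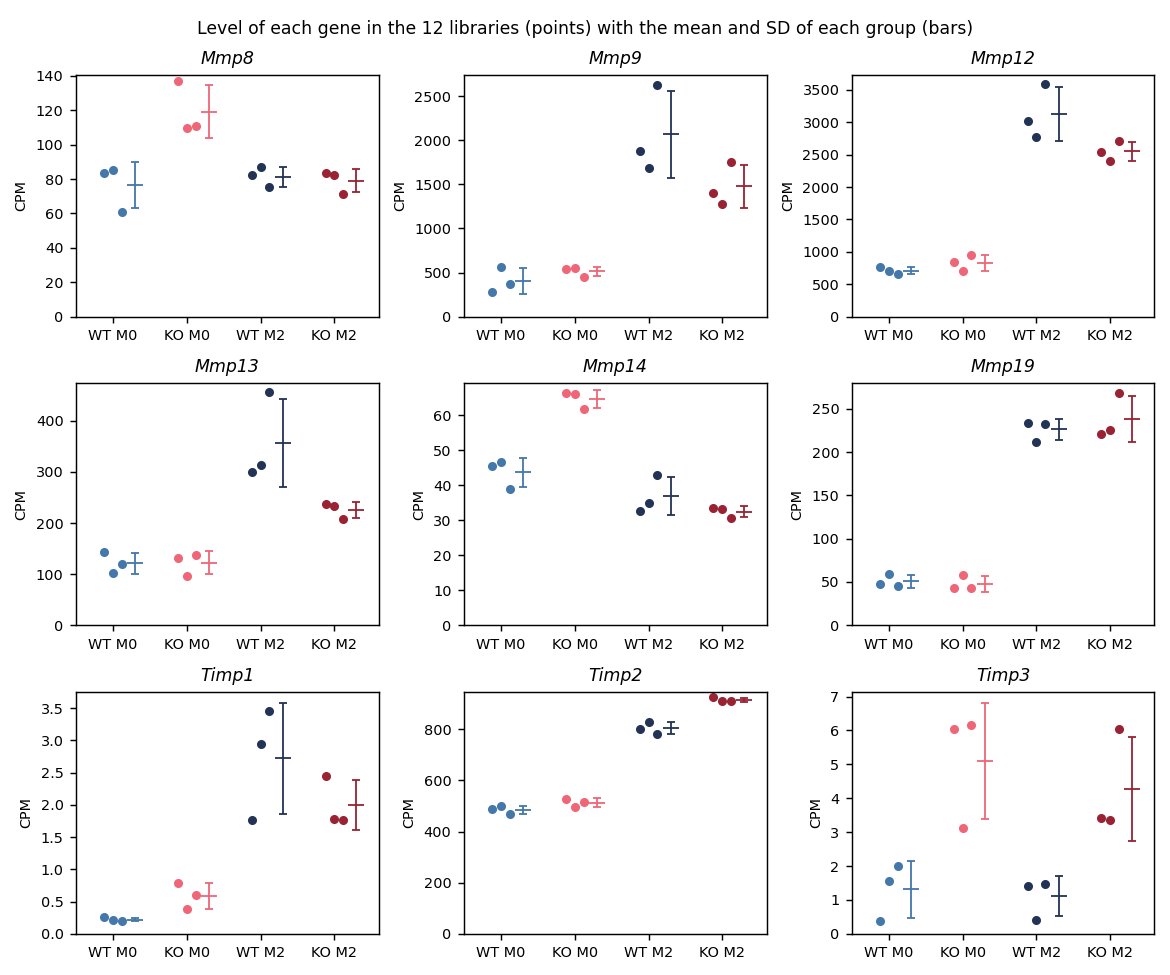
CPM (counts per 1000000, vertical axis) of each of the 9 genes in the 12 libraries, by group, as points with the mean and SD of the 3 libraries beside them. The M2 groups lie above the M0 groups for Mmp9, Mmp12, Mmp13, Mmp19, Timp1 and Timp2, and the KO libraries lie above the WT libraries of the same state for Timp3.

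Mmp9 (chromosome 2, 164780439 to 164797771) encodes gelatinase B, which cuts denatured collagen and basement membrane collagen. It was at 276, 567 and 369 CPM in WT M0 and at 1881, 1688 and 2626 CPM in WT M2. In KO it was at 535, 553 and 455 CPM in M0 and at 1404, 1280 and 1751 CPM in M2. Every M2 library lay above every M0 library, and WT M0 library 2 was the highest of the 6 M0 libraries and as high as KO M0. The log2 fold change with IL-4 was 2.35 in WT (standard error 0.22, adjusted p = 1.08e-06) and 1.52 in KO (standard error 0.12, adjusted p = 4.3e-07). Mmp9 is a granule gene of neutrophils as well, and the summed neutrophil and granule markers were at 1.21 to 3.29 CPM in WT M0 and 3.07 to 6.41 CPM in WT M2, with 1 of the 12, S100a8, passing the filter on low counts and called higher (log2 fold change 2.04, adjusted p = 0.000229). Their part in the result was not tested.

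Mmp12 (chromosome 9, 7344381 to 7369499), the macrophage elastase, had the most counts of all MMP and TIMP genes. It was at 764, 702 and 658 CPM in WT M0 and at 3016, 2776 and 3590 CPM in WT M2, and in KO at 844, 705 and 945 CPM in M0 and at 2537, 2405 and 2706 CPM in M2. No M2 library reached down to an M0 library. With IL-4 the log2 fold change was 2.14 in WT (standard error 0.10, adjusted p = 1.01e-09) and 1.61 in KO (standard error 0.10, adjusted p = 6.86e-08).

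Mmp13 (chromosome 9, 7272514 to 7283331) encodes collagenase 3, which cuts fibrillar collagen. It was at 143, 102 and 120 CPM in WT M0 and at 301, 314 and 456 CPM in WT M2, and in KO at 133, 96.9 and 138 CPM in M0 and at 237, 233 and 209 CPM in M2. The states did not overlap in either genotype. In log2 units the rise with IL-4 was 1.56 in WT (standard error 0.15, adjusted p = 1.5e-06), and in KO it was 0.88 (standard error 0.12, adjusted p = 6.72e-05).

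Mmp19 (chromosome 10, 128626773 to 128636695), an MMP with basement membrane proteins among its substrates, was at 44.8 to 59.5 CPM in WT M0 and 212 to 234 CPM in WT M2, and at 42.5 to 57.7 CPM in KO M0 and 221 to 268 CPM in KO M2. The 2 genotypes overlapped in each state. Its log2 fold change with IL-4 was 2.15 in WT (standard error 0.10, adjusted p = 7.94e-10) and 2.31 in KO (standard error 0.13, adjusted p = 2.25e-08).

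Mmp14 (chromosome 14, 54668878 to 54682821) encodes a membrane-anchored MMP that activates the precursor of MMP2 at the cell surface. It was at 45.4, 46.7 and 39.1 CPM in WT M0 and at 32.7, 34.8 and 43.0 CPM in WT M2, and the WT states overlapped. In KO it was at 66.4, 66.2 and 61.8 CPM in M0 and at 33.6, 33.2 and 30.6 CPM in M2, and the KO states did not overlap. The log2 fold change with IL-4 was -0.25 in WT (standard error 0.11, adjusted p = 0.0727), not called, and -1.003 in KO (standard error 0.09, adjusted p = 1.42e-06), called lower. Without WT M0 library 3 or WT M2 library 3 the WT value was called, at -0.33 and -0.37 (adjusted p = 0.0364 and 0.0129).

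Mmp8 (chromosome 9, 7558457 to 7568487), a collagenase first known from neutrophil granules, was at 83.4, 85.0 and 60.8 CPM in WT M0 and 82.2, 86.7 and 75.2 CPM in WT M2. In KO it was at 137, 110 and 111 CPM in M0 and 83.5, 82.3 and 71.4 CPM in M2. The WT states overlapped and the KO states did not. IL-4 was followed by a log2 fold change of 0.09 in WT (standard error 0.11, adjusted p = 0.517) and -0.60 in KO (standard error 0.10, adjusted p = 0.000522).

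**Figure D2:**
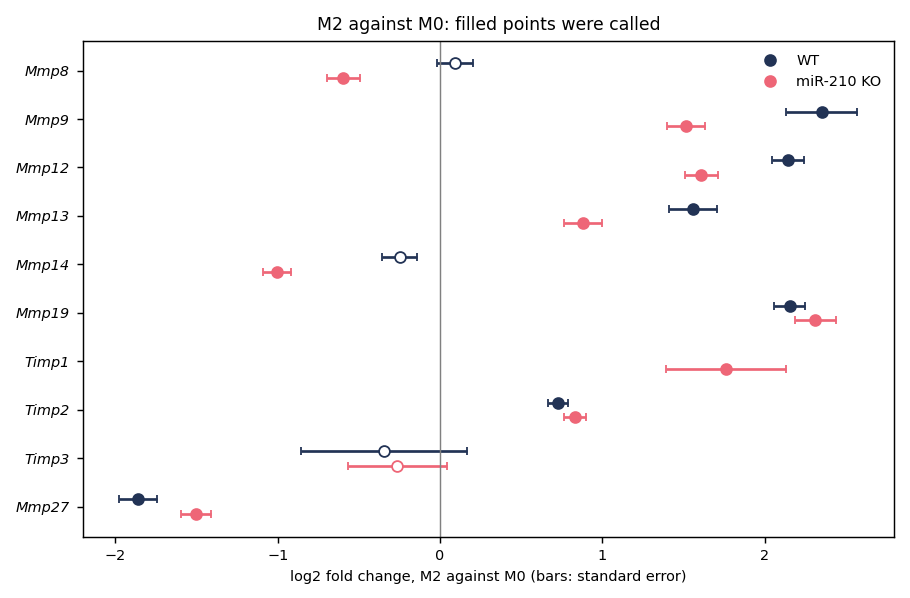
log2 fold change of M2 against M0 in WT and in miR-210 KO (horizontal axis) for the 9 genes and Mmp27, with the standard error as bars and filled points for called values. Mmp9, Mmp12, Mmp13, Mmp19 and Timp2 lie to the right of 0 in both genotypes and Mmp27 to the left, while Mmp8 and Mmp14 have filled points, to the left, in KO and open points in WT. Timp1 in WT is left out, because the WT M0 libraries held 2 counts each.

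Timp2 (chromosome 11, 118191887 to 118246566), which inhibits most MMPs and also takes part in the activation of MMP2 together with MMP14, was the main inhibitor. It made up 98.7% to 99.9% of the CPM of the 4 Timp genes in each library. It was at 487, 499 and 468 CPM in WT M0 and at 801, 828 and 781 CPM in WT M2, and in KO at 527, 494 and 516 CPM in M0 and at 924, 910 and 912 CPM in M2. The states did not overlap. With IL-4 it rose by 0.73 on the log2 scale in WT (standard error 0.06, adjusted p = 4.54e-07) and by 0.83 in KO (standard error 0.07, adjusted p = 8.48e-07). Timp2 shares its strand with the gene Cep295nl, which overlaps it, so reads in both could be counted on neither.

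Timp1 (chromosome X, 20736316 to 20740976), an inhibitor that fibroblasts and many other cells release on stimulation, was low. It had 2 counts in each WT M0 library and between 1.77 and 3.46 CPM in WT M2. In KO it was at 0.782, 0.377 and 0.596 CPM in M0 and at 2.45, 1.78 and 1.76 CPM in M2. The states did not overlap in either genotype. The ratio of pooled counts in M2 against M0 was 12.5 in WT (71 against 6 counts, exact 95% interval 5.47 to 35.2, counting error only) and 3.46 in KO (51 against 17 counts, interval 1.97 to 6.40). Both were called (adjusted p = 1.63e-05 and 0.00226). Timp1 passed the filter on low counts only through the M2 libraries of each genotype, where it was higher, so these calls are a description only.

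Timp3 (chromosome 10, 86136236 to 86185371), a TIMP that binds to the extracellular matrix and also inhibits ADAM17, did not change beyond its spread with IL-4. Its log2 fold change was -0.34 in WT (standard error 0.51, adjusted p = 0.612) and -0.26 in KO (standard error 0.31, adjusted p = 0.558). The states overlapped in both genotypes.

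Whether the response to IL-4 differed between the genotypes was asked in a fit of all 12 libraries with an interaction term. None of the 9 members was called, and 0% of the 14825 genes tested were called (0 genes with edgeR, 1333 of them at an unadjusted p under 0.05, and 72 with the DESeq2 Wald test). The values nearest to a call, as KO minus WT differences of the log2 IL-4 effect, were -0.75 for Mmp14 (standard error 0.14, unadjusted p = 6.34e-05, adjusted p = 0.102) and -0.68 for Mmp8 (standard error 0.17, adjusted p = 0.155). DESeq2 called both (adjusted p = 0.00552 and 0.0373). The differences were -0.53 for Mmp12 (adjusted p = 0.234), -0.67 for Mmp13 (adjusted p = 0.321), and -0.83 for Mmp9 (adjusted p = 0.339), and between 0.08 and 0.17 for Mmp19, Timp2 and Timp3. Timp1 is given no size here, since its WT M0 libraries held 2 counts each (adjusted p = 0.368). In the interaction test without WT M0 library 2, Mmp9 and Mmp14 were called (-1.17 and -0.81, adjusted p = 0.0335 and 0.0284), and without KO M0 library 2, Mmp12 and Mmp14 were (-0.63 and -0.73, adjusted p = 0.0388 and 0.0386). Without KO M0 library 3 none of the 9 was called.

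In M0, Mmp14 was the one member called between the genotypes. Of the 8 members tested, 1 was called higher in KO (0.220% of the 14089 genes tested were) and 0 lower (0.241%), and Timp1 had too few counts to be tested. The 3 KO M0 libraries (61.8 to 66.4 CPM) lay above the 3 WT M0 libraries (39.1 to 46.7 CPM). Its log2 fold change was 0.57 (standard error 0.09, adjusted p = 0.0277). The call was lost without WT M0 library 1 (adjusted p = 0.115), WT M0 library 3 (0.201), KO M0 library 1 (0.0787) or KO M0 library 3 (0.0694), and was kept without either library 2, with a log2 fold change between 0.49 and 0.63 in the 6 fits. A lncRNA gene, Gm56768, overlaps Mmp14 on the same strand, and its counts were not used.

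Mmp8 and Timp3 were not called in M0. Every KO M0 library lay above every WT M0 library for both, which is a description only. On the log2 scale the KO level was higher by 0.64 for Mmp8 (standard error 0.13, adjusted p = 0.0699) and by 1.88 for Timp3 (standard error 0.42, adjusted p = 0.0923). Without WT M0 library 2, Mmp8 was called (0.73, adjusted p = 0.0182), and without KO M0 library 2, Timp3 was (2.15, adjusted p = 0.0389), while without KO M0 library 3 neither was (adjusted p = 0.148 and 0.236). Both were called by DESeq2 (adjusted p = 0.000821 and 0.00225) and in a fit of all 12 libraries (adjusted p = 0.00958 and 0.0308). These settings also called more of all genes in M0 than the main test did. Among the M0 libraries, Timp3 passed the filter on low counts only through the KO libraries, where it was higher. Timp1, not tested, also had every KO M0 library (0.377 to 0.782 CPM) above every WT M0 library (0.201 to 0.253 CPM, 2 counts each). Its ratio of pooled counts was 2.63 (17 against 6 counts, exact 95% interval 0.990 to 8.15, counting error only). Neutrophil and granule markers summed to 1.59 to 2.35 CPM in KO M0 and to 1.21 to 3.29 CPM in WT M0, and the summed level overlapped. S100a8, the one of these markers tested, was at 1.09 to 1.90 CPM in KO M0 and 0.516 to 1.26 CPM in WT M0 (log2 fold change 1.03, adjusted p = 0.414). S100a8 passed the filter on low counts there only through the KO M0 libraries, where it was higher. The part of these markers in the Mmp8 difference was not tested.

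The other members tested in M0 had log2 fold changes between -0.09 and 0.35 and were not called. Mmp9, at 0.35 (adjusted p = 0.633), was called only without WT M0 library 2, at 0.68 (adjusted p = 0.0177), and that library held the highest Mmp9 level of the M0 libraries. Mmp12 was at 0.23 (adjusted p = 0.53), Mmp13 at 0.01 (0.99), Mmp19 at -0.09 (0.885) and Timp2 at 0.08 (0.793).

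**Figure D3:**
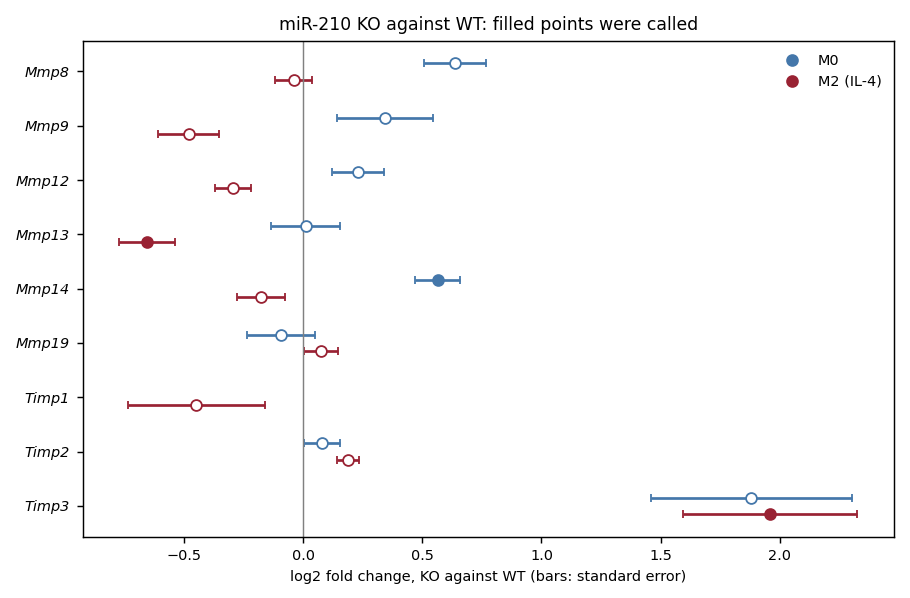
log2 fold change of miR-210 KO against WT (horizontal axis) in M0 and M2 for the 9 genes, with the standard error as bars and filled points for called values. Filled points are Mmp14 in M0 and Mmp13 and Timp3 in M2, and Timp3 lies near 1.9 in both states. Timp1 has no point in M0, where it was not tested.

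In M2, Timp3 was called higher and Mmp13 lower in KO. Of the 9 members, 1 was called higher (0.408% of the 13980 genes tested were) and 1 lower (0.572%).

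Timp3 had the largest fold change of the members between the genotypes at a very low level. Its counts were 12, 4 and 12 in WT M2 and 28, 32 and 48 in KO M2, or 1.42, 0.420 and 1.48 CPM against 3.43, 3.35 and 6.04 CPM. In M0 the counts were 3, 15 and 20 in WT and 54, 33 and 62 in KO, or 0.379, 1.55 and 2.01 CPM against 6.03, 3.11 and 6.16 CPM. The genotypes did not overlap in either state. Timp3 passed the filter on low counts in both states only through the KO libraries, where it was higher. WT M0 library 1 (3 counts) and WT M2 library 2 (4 counts) were too low for the WT libraries alone to pass. The log2 fold change in M2 was 1.96 (standard error 0.37, adjusted p = 0.0163), and the ratio of pooled counts was 3.92 in M2 (exact 95% interval 2.57 to 6.17, counting error only) and 3.64 in M0 (interval 2.54 to 5.35). The M2 call was lost without KO M2 library 2 (adjusted p = 0.0537) and in the fit of all 12 libraries (adjusted p = 0.0978). Timp3 overlaps the gene Syn3, which is on the opposite strand, and reads were counted by strand.

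Fibroblasts are a common source of Timp3. The 8 fibroblast markers summed to 1.23 CPM on average in WT M0 and 2.09 CPM in KO M0, with every KO M0 library above every WT M0 library, 0 of the 8 passing the filter on low counts and Col1a1 at 0.447 CPM or less in every library. In M2 they summed to 0.591 to 1.05 CPM in WT and to 0.612 to 1.01 CPM in KO, and Col1a1 was at 0 in all 6 libraries. Their part in the Timp3 difference was not tested.

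Mmp13 was at 237, 233 and 209 CPM in KO M2 against 301, 314 and 456 CPM in WT M2, and the groups did not overlap. Library 3 was the highest of the WT and the lowest of the KO libraries. Mmp13's log2 fold change was -0.65 (standard error 0.12, adjusted p = 0.0111). The call was lost without KO M2 library 2 (adjusted p = 0.101), with the DESeq2 Wald test (adjusted p = 0.116) and in the fit of all 12 libraries (adjusted p = 0.0883). Mmp13 is also made by osteoclast-lineage and bone cells, and 2 of 6 osteoclast markers tested were called lower in KO M2, Dcstamp and Ocstamp, which encode proteins needed for cell fusion. Of all genes tested, 0.572% were called lower. Dcstamp went from 38.5 to 69.6 CPM in WT M2 to 26.3 to 34.2 CPM in KO M2 and Ocstamp from 124 to 203 CPM to 91.2 to 101 CPM, while the summed level of the 8 markers was 1620 to 1650 CPM in WT M2 and 1620 to 1700 CPM in KO M2. Their part in the result was not tested.

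Mmp12 and Timp2 were not called between the genotypes in M2, and that their libraries did not overlap is a description only. Every KO M2 library lay below every WT M2 library for Mmp12 (log2 fold change -0.29, standard error 0.08, adjusted p = 0.0837) and above for Timp2 (0.19, standard error 0.05, adjusted p = 0.0763). Mmp12 was called by DESeq2 (adjusted p = 0.0491). Mmp9 overlapped between the genotypes (-0.48, standard error 0.13, adjusted p = 0.105). Both Mmp9 and Mmp12 were called lower in KO without WT M2 library 2 (adjusted p = 0.0171 and 0.0126) and without KO M2 library 3 (adjusted p = 0.00968 and 0.0265). Neutrophil and granule markers summed to 3.07 to 6.41 CPM in WT M2 and to 1.47 to 2.30 CPM in KO M2, and S100a8 had a log2 fold change of -1.18 (adjusted p = 0.0602). S100a8 passed the filter on low counts there only through the WT M2 libraries, where it was higher. The part of these markers in these differences was not tested. Mmp8, Mmp14, Mmp19 and Timp1 had log2 fold changes between -0.45 and 0.08 and adjusted p-values between 0.583 and 0.916.

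**Figure D4:**
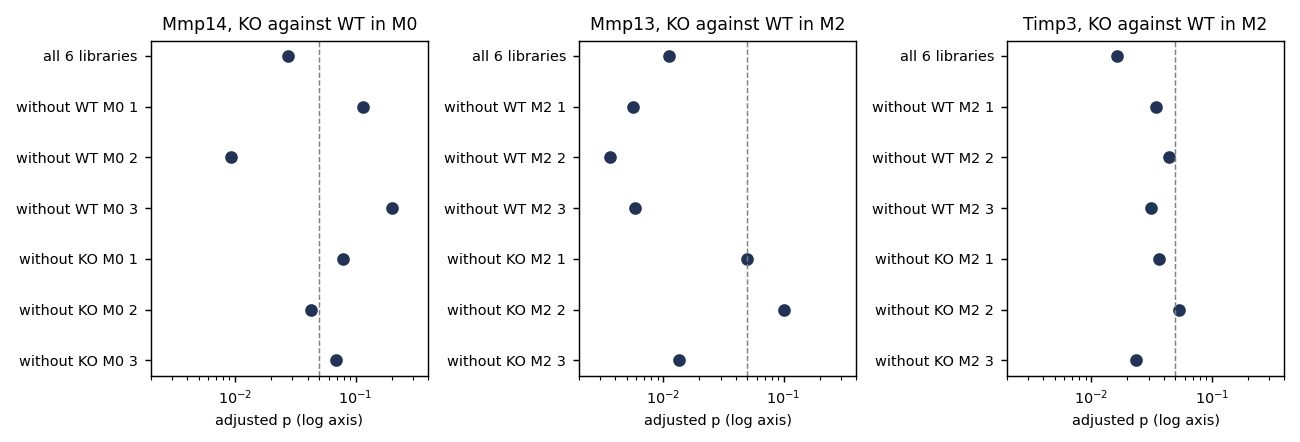
Adjusted p (horizontal axis, log scale) of the 3 members called between the genotypes, with all 6 libraries and with each library left out in turn, and the limit of 0.05 as a dashed line. The Mmp14 call in M0 was kept in 2 of 6 such fits, and the Mmp13 and Timp3 calls in M2 in 5 of 6 each.

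Levels were compared between genes per length, in CPM per kb of the union of a gene's exons. In WT M0, Mmp9 (109 ± 40.2), Timp2 (109 ± 3.50) and Mmp12 (97.9 ± 7.38) were highest on this length and did not differ beyond their spread (SD, n = 3 each). Then came Mmp13 at 45.4 ± 7.70 and Mmp8 at 31.5 ± 5.58, and then Mmp19 at 14.3 ± 2.19 and Mmp14 at 7.09 ± 0.665. Timp3 and Timp1 were lowest, at 0.161 ± 0.103 and 0.113 ± 0.0145, and did not differ beyond their spread.

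The order depended on the length used. With the canonical transcript as length, an alternative added after seeing the data, Mmp12 came first in WT M0 at 196 CPM per kb, ahead of Timp2 at 129 and Mmp9 at 127 CPM per kb. In WT M2, Mmp9 was at 558 ± 134 and Mmp12 at 432 ± 57.7 CPM per kb (SD, n = 3 each), ahead of Timp2 at 180 ± 5.32 and Mmp13 at 134 ± 32.3. In KO M2, Mmp9 was at 399 ± 66.0, Mmp12 at 352 ± 20.9, Timp2 at 205 ± 1.75 and Mmp13 at 84.6 ± 5.77. With the canonical transcript as length, Mmp12 also came first in WT M2, at 867 CPM per kb, and Mmp9 second at 650 CPM per kb, because the exon union of Mmp12 covers 7237 bases and its canonical transcript 3607. As a share of the CPM of all 23 Mmp genes, Mmp12 and Mmp9 together held most in each group, Mmp12 46.5% ± 4.44 in WT M0 and 52.9% ± 1.77 in WT M2, and Mmp9 26.1% ± 7.78 in WT M0 and 34.5% ± 2.35 in WT M2 (SD, n = 3 each).

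**Figure D5:**
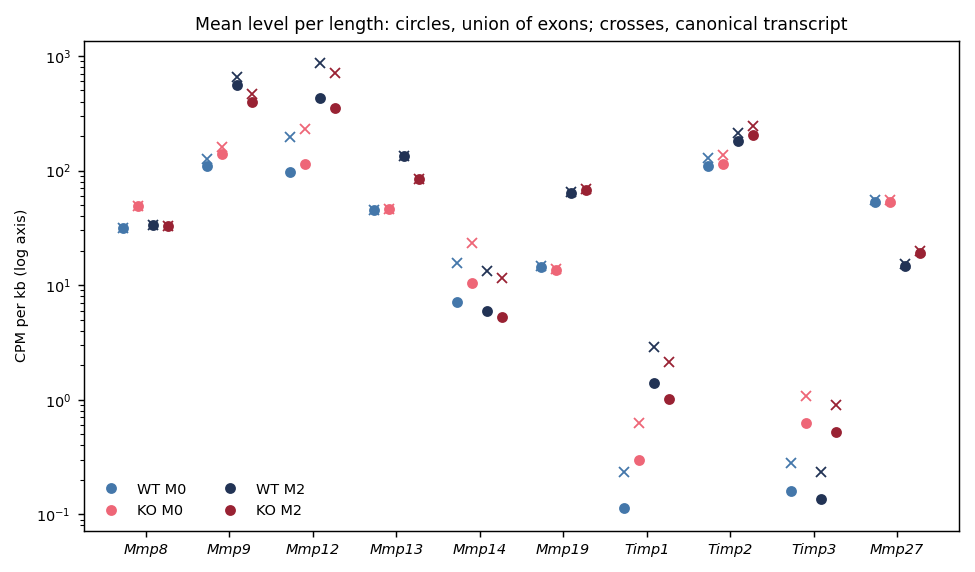
Mean CPM per kb (vertical axis, log scale) of the 9 genes and Mmp27 in the 4 groups, with the union of exons (circles) or the canonical transcript (crosses) as length. Mmp9, Mmp12 and Timp2 are highest in M0, Timp1 and Timp3 are lowest in all groups, and the circles and crosses of Mmp12 lie furthest apart among the abundant genes.

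The rest of the family was mostly silent, with Mmp27 as the exception. Of the other 17 Mmp genes, 3 (Mmp1b, Mmp3 and Mmp7) were at 0 in every library and 7 had between 1 and 3 counts at most, and Timp4 had at most 1 count. Mmp27, which encodes a little-studied MMP, was at 104 to 137 CPM in WT M0 and 27.7 to 36.7 CPM in WT M2, and at 109 to 126 CPM in KO M0 and 38.4 to 46.1 CPM in KO M2. It fell with IL-4 in both genotypes, by 1.86 on the log2 scale in WT (standard error 0.12, adjusted p = 2.07e-08) and by 1.50 in KO (standard error 0.09, adjusted p = 6.31e-08). Between the genotypes its log2 fold change was 0.00 in M0 (adjusted p = 0.998) and 0.37 in M2 (adjusted p = 0.122), where every KO library lay above every WT library. Mmp11 was at 3.58 CPM at most and was not called in any comparison, and Mmp24 and Mmp28, tested in M0 between the genotypes, were not called there. The remaining Mmp genes, Mmp1a, Mmp2, Mmp10, Mmp15, Mmp16, Mmp17, Mmp20, Mmp21, Mmp23 and Mmp25, did not pass the filter in the comparisons of groups.

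Genes side by side on the chromosome went different ways. Chromosome 9 of GRCm39 holds 10 Mmp genes in 427 kb, from 7272514 to 7699587, and among them Mmp13 and Mmp12 rose with IL-4 in both genotypes, Mmp8 was called lower in KO and not in WT, and its neighbour Mmp27 fell in both. Mmp8 and Mmp27 both overlap a lncRNA gene, Gm31751, that is on the opposite strand, and Mmp12 overlaps the end of Mmp1b, which is on the opposite strand and at 0.

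Over the 12 libraries, the levels of Mmp9, Mmp12, Mmp13, Mmp19, Timp1 and Timp2 (log2 CPM) moved together, with Pearson's r between 0.821 and 0.970 for each pair. Mmp8 and Mmp14 had an r of 0.772 with each other and negative values with those 6, and Timp3 had values between -0.259 and 0.372 with all others. The 12 points share the step between M0 and M2, so these values describe that step first. The genes most like each member over the same libraries were Flna (Pearson's r 0.989) and Ncs1 (0.986) for Mmp9, Rars1 (0.998) and Pdgfa (0.996) for Mmp12, Serpinb9b (0.987) and Trim35 (0.976) for Mmp13, and Atp6v0a1 (0.998) and Fyn (0.997) for Mmp19. For Timp1 they were Sun2 (0.985) and Tmem41b (0.980), and for Timp2 Oxct1 (0.996) and Gda (0.995). The genes closest to Mmp8 were Ctps2 (0.874) and Gid4 (0.856), to Mmp14 Gm57067 (0.956) and C1galt1 (0.949), and to Timp3 Gm57248 (0.892) and Xlr3b (0.888).

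Genes that activate MMPs, inhibit other proteases or clear them were looked at beside the members. Of 21 such genes, 11 were tested. With IL-4, 4 of the 11 were called higher and 1 lower in WT (22.1% and 20.9% of all genes tested were), and 5 higher and 2 lower in KO (17.4% and 16.4%). Those higher in WT included Cd44 (1.57) and Cd151 (1.33), surface proteins that hold MMPs at the membrane, and Plaur (1.83), the urokinase receptor.

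The other protease and matrix lists had 0 genes called between the genotypes in either state. Of all genes tested, 0.220% were called higher and 0.241% lower in M0, and 0.408% and 0.572% in M2. Of the ADAM and ADAMTS genes, 4 of 10 were called higher and 1 lower with IL-4 in WT, with Adam8 (1.23) and Adam19 (2.08) among the former, Adamts14 called at too few counts in WT M0 for a fold, and Adamts6 (-0.58) the one lower. In KO, 5 of 9 were called higher and 1 lower. Of the cathepsins and cystatins, 7 of 15 were called higher, led by Ctsl (1.38), Ctsk (2.64) and Cst7, and 5 lower, led by Ctsc (-1.999), Ctse (-2.43) and Ctsb (-0.34). In KO the numbers were also 7 and 5 of 15. Cst7 had 0, 3 and 1 counts in WT M0, too few for a fold. It passed the filter on low counts through the WT M2 libraries (47, 46 and 43 counts). Of the matrix substrates, 5 of 9 were called higher, with Fn1 at 1.14 to 2.82 CPM in WT M0 and 1683 to 1917 CPM in WT M2, Fbn1 (1.50) and Lamb2 (0.83), and 2 lower, Nid2 (-2.06) and Lamc1 (-0.30). These are log2 fold changes of M2 against M0 in WT. With IL-4, 22.1% of all genes tested were called higher and 20.9% lower in WT, and 17.4% and 16.4% in KO. Of the matrix substrates in KO, 1 of 10 was called higher, Fn1 (2.38 to 3.24 CPM in M0 and 1556 to 2082 CPM in M2), and 5 lower. The median log2 fold change was -0.17 in KO and 0.56 in WT, but the genes tested were not all the same. Tnc and Fbln2 passed the filter on low counts in KO through the M0 libraries (Tnc 18, 14 and 31 counts, and 2, 4 and 8 in M2). Fbn1 passed it in WT through the M2 libraries (14, 16 and 11 counts, and 5 in each M0 library). The genotypes are therefore not compared on the same genes. Those lower in KO, named after their values were seen, were Nid2 (-2.40), Tnc (-1.94), Lox (-0.53), Lamc1 (-0.39) and Fbln2, which had 21, 22 and 38 counts in KO M0 and 0, 1 and 3 in KO M2. In the interaction test 0 of the 11 matrix substrates tested were called.

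Of the 12 AP-1 and ETS factor genes, 5 of 9 tested were called higher with IL-4 in WT and 1 lower (22.1% and 20.9% of all genes tested were). Fosl2 rose by 2.74, Ets1 by 1.38 and Jund by 1.25 on the log2 scale, and Etv5 fell by 0.47. In KO, 4 of 10 were called higher and 0 lower (17.4% and 16.4% of all genes). In KO M0 library 3, where Fos and Junb were at 908 and 842 CPM against at most 543 CPM of Junb elsewhere, Mmp9 (455 CPM) and Mmp14 (61.8 CPM) were the lowest, and Mmp12 (945 CPM), Mmp13 (138 CPM) and Timp3 (6.16 CPM) the highest, of the 3 KO M0 libraries. Its part in these levels was not tested.

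Markers of the M2 state moved as the labels say, with 6 of the 7 IL-4 response genes tested called higher in both genotypes, among them Arg1 (log2 fold change 5.53 in WT), Chil3 and Retnla, and Il4ra called lower (-0.99 in WT). Arg1 was also called higher between the genotypes in M0, at 34.2 to 50.4 CPM in WT and 62.3 to 84.6 CPM in KO (log2 fold change 0.85, standard error 0.15, adjusted p = 0.0342). Of the 10 macrophage markers, 6 were called lower with IL-4 in WT, among them Fcgr1 (-2.97), Mertk (-1.33) and C1qa (-0.67), and 1 higher (Itgam, 0.61). Over all genes tested in WT, 20.9% were called lower and 22.1% higher. Markers of other cells that activated macrophages also use moved with the state. Osteoclast markers summed to 229 to 275 CPM in WT M0 and 1620 to 1650 CPM in WT M2 (Ocstamp, Atp6v0d2 at 3.06 and Acp5 at 3.07 led, and Nfatc1 fell by 0.66), dendritic cell markers to 3.29 to 4.85 and 682 to 753 CPM (Itgax and Zbtb46), and endothelial markers to 38.0 to 49.3 and 167 to 174 CPM (Vwf at 4.19 and Pecam1 at 2.37, with Kdr at -1.70). Mast cell and basophil markers summed to at most 4.61 CPM, with Gata2 the one called. The part of these markers in the rise of the MMP genes was not tested.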

How the data were processed

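RNA-seq counts from 12 bone marrow macrophage libraries, 3 in each of 4 groups, were used. The authors trimmed reads with Trimmomatic, removed duplicates with Picard, aligned to GRCm39 with STAR and made strand-specific counts per gene with featureCounts. The counts were deposited unnormalized, in 4 tables of a pair of groups each. The deposited signal tables hold these counts after division by library size factors and served here only as an alternative for levels. Removal of duplicates can lower the counts of abundant genes such as Mmp12. Columns name a group and a library number, and the numbers are not tied to samples.

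Genes were matched by Ensembl identifier to a GENCODE annotation of GRCm39, which held 56323 of the 56941. Tests used edgeR 4.0.16 in R 4.3.3 (TMM, filterByExpr by group, quasi-likelihood test, Benjamini-Hochberg adjustment over all genes tested) on the 6 libraries of a pair, or on all 12 for the interaction, which was called by adjusted p alone. The standard error is the log2 fold change divided by the square root of F. Correlations used log2(CPM + 0.5). DESeq2 1.42.0, other normalizations, filters and limits, a library-number block and each library left out were alternatives. The steps were tested on simulated data. The members, lists and motifs were chosen with earlier results of these data known. Genes named are the 9 members, other Mmp and Timp genes tested, list genes called between the genotypes, up to 3 called genes per direction with IL-4 in WT per list, and the 2 genes most like each member. The values of one gene in the list of MMP activators and other inhibitors, and that list's calls between the genotypes, are not reported here. Totals per library lay between 7930525 and 10167695 counts, intervals cover counting error only, and the floor was 3 counts.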

Additional observations from a re-analysis of the deposited data

How the results depend on the processing

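Across the alternatives, 613 of 677 log2 fold changes of a member kept their direction and call, 15 lost a call, 34 gained one and 15 changed direction, and those 15 were uncalled values with 1 library left out. With IL-4 in WT, 6 members were called in every setting that kept all libraries except a 2-fold limit on the change (1 on the log2 scale), which gave 5, and 6 to 7 with 1 library left out. With IL-4 in KO, 8 were called in each setting but that limit, which gave 5, and 8 to 8 with 1 library left out. In the main setting 22.1% of all genes tested were called higher and 20.9% lower in WT, and 17.4% and 16.4% in KO. The shares of all genes with 1 library left out are not given, so those counts of members are a description. Between the genotypes the counts moved. In M0, where 1 member was called, DESeq2 called 3, no filter on low counts 4, the fit of all 12 libraries 3 and the limit of 1 none (0), and 0 to 3 were called with 1 library left out. In M2, where 2 were called, no filter gave 4, the limit of 1 gave 1 and the fit of all 12 libraries 0, with 0 to 4 when 1 library was left out. In M0, calls over all genes were 65, against 219 with DESeq2, 532 with no filter, 27 with the limit of 1 and 248 with all 12 libraries. In M2 they were 137, against 360 with no filter, 40 with the limit of 1 and 60 with all 12 libraries. For the interaction 0 members and 0 genes were called, 2 members and 72 genes with DESeq2 and 5 members and 341 genes with no filter, and 0 to 2 members with 1 library left out. The labels do not say whether the library numbers pair the samples. The correlations of same-numbered libraries lay between -0.299 and 0.369, which with 3 libraries per group cannot decide it. With the replicate block, 3 members (284 genes) were called in M0 and 4 members (290 genes) in M2, and the other comparisons kept their number of members called.

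The values that changed direction with 1 library left out ranged, as log2 fold changes, from -0.095 to 0.156 for Mmp13 and from -0.26 to 0.049 for Mmp19 between the genotypes in M0. In M2 they ranged from -0.09 to 0.028 for Mmp8 and from -0.015 to 0.126 for Mmp19. With IL-4 in WT they ranged from -0.052 to 0.183 for Mmp8 and from -0.722 to 0.082 for Timp3, and for the interaction of Timp3 from -0.352 to 0.452. The causes of the moves were not tested. Depth limits Timp1 and Timp3, which had at most 28 and 62 counts in a library.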
